A study of Mus musculus with 6 samples.

Results

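Integrins are cell surface receptors made of 1 alpha and 1 beta subunit, which tie the cytoskeleton to the matrix outside the cell or to counter-receptors on other cells. Laminins are three-chain proteins of the basement membrane, each built from an alpha, a beta and a gamma chain, and several integrins bind them. In an artery, smooth muscle and endothelial cells rest on such basement membranes, and leukocytes enter the wall with integrins of their own. All genes whose single symbol in the platform annotation is an integrin subunit (Itga or Itgb) or a laminin chain (Lama, Lamb or Lamc) were taken, each by its probe set of highest mean signal over the 6 arrays. This gave 37 of 19938 named genes, 27 integrin subunits and 10 laminin chains, on 38 probe sets.

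RNA from samples labelled as aorta was measured on 6 one-colour arrays, 1 per sample. Per the labels, 3 samples came from Trail-/- mice, whose line was obtained from Amgen, and 3 from wild-type mice, both on the C57Bl6/J background and 6 weeks old, with no treatment named. The labels give neither the part of the gene that was deleted nor whether a sample pooled several mice. The p-values set a group difference against the spread between these samples, whether they are single mice or pools. Trail, encoded by Tnfsf10, is a ligand that can trigger apoptosis through death receptors, and the comparison asks what its loss changes in aortic tissue. Values are log2 signals, on which a difference of 1 is a 2-fold difference, and differences are given as knockout minus wild type. Signals of different probe sets are not comparable in level, so each gene is compared only with itself across arrays. Marker lists are also given as medians or sums of linear signals, each compared only with itself across arrays, and the brightest probe sets weigh most in a sum.

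The signal of the deleted gene did not follow the labels on every array. Tnfsf10 gave 8.42 on the array labelled wild type 1, and 4.90 and 4.85 on those labelled wild type 2 and 3. On the arrays labelled knockout it gave 4.09 to 5.02, so it did not set the last 2 wild-type arrays apart from these. Its probe set fell below the filter on low signal and was not tested. All its signals but the 8.42 lay under the cutoff of that filter, and how far they rise above background is not known. Their overlap therefore cannot decide whether the labels of those 2 arrays hold. Every direction here is the one the labels give. The signals of the array labelled wild type 1 correlated with the others at Pearson r of 0.887 to 0.897 across probe sets, against 0.970 to 0.996 among the other 5. On it, 20 of 20 markers of stratified squamous epithelium and 20 of 20 of skeletal muscle lay over 2-fold below each of the others, and 13 of 15 fat markers lay over 2-fold above. On the array labelled knockout 2, 10 of 11 stomach epithelium markers were over 2-fold above all others, and on that labelled knockout 1, 8 of 12 lung epithelium markers were. The vascular smooth muscle list, 16 of 16 markers found, had array medians from 9.28 to 10.61, and the signal of Acta2 was 12.27 to 12.63, so smooth muscle markers, which are not particular to aorta, were present on each. The 5 arrays other than that labelled wild type 1 also held RNA of tissues that the label does not name: Krt13, a keratin of squamous epithelium, lay between 13.02 and 13.12 on them and at 5.31 on the array labelled wild type 1, and Acta1, the actin of skeletal muscle, between 13.00 and 13.25 and at 7.28. In bulk tissue, fewer cells of a type and less RNA per cell cannot be told apart. Results are therefore given on all 6 arrays and on the 5 that remain when the one labelled wild type 1 is left out.

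On the arrays other than that labelled wild type 1, the signal of 23 of the 37 genes (62.2%) spanned less than 0.5 from lowest to highest, against 72.1% of all 19938 genes. None of the 30 members that passed the filter on low signal spanned more than 1, against 4.73% of the 11881 genes that passed. Itgb1, the beta subunit shared by most matrix receptors, had signals of 10.61, 10.70 and 10.51 on the arrays labelled knockout 1, 2 and 3 and of 10.84, 10.48 and 10.64 on those labelled wild type 1, 2 and 3. The groups overlap, and no array stands apart. Lamc1, the gamma chain found in most laminins, lay between 9.24 and 9.48 on all 6 arrays. The array labelled wild type 1 gave the highest of the 6 signals for 20 of the 37 members (54.1%), against 33.4% of all 19938 genes, and the lowest for 9 (24.3%), against 24.6%. Among genes that passed the filter the gap was smaller, with the highest signal there for 15 of 30 members (50%) against 40.2%. The lowest was there for 9 of the 30 (30%) against 29.8%.

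**Figure D1:**
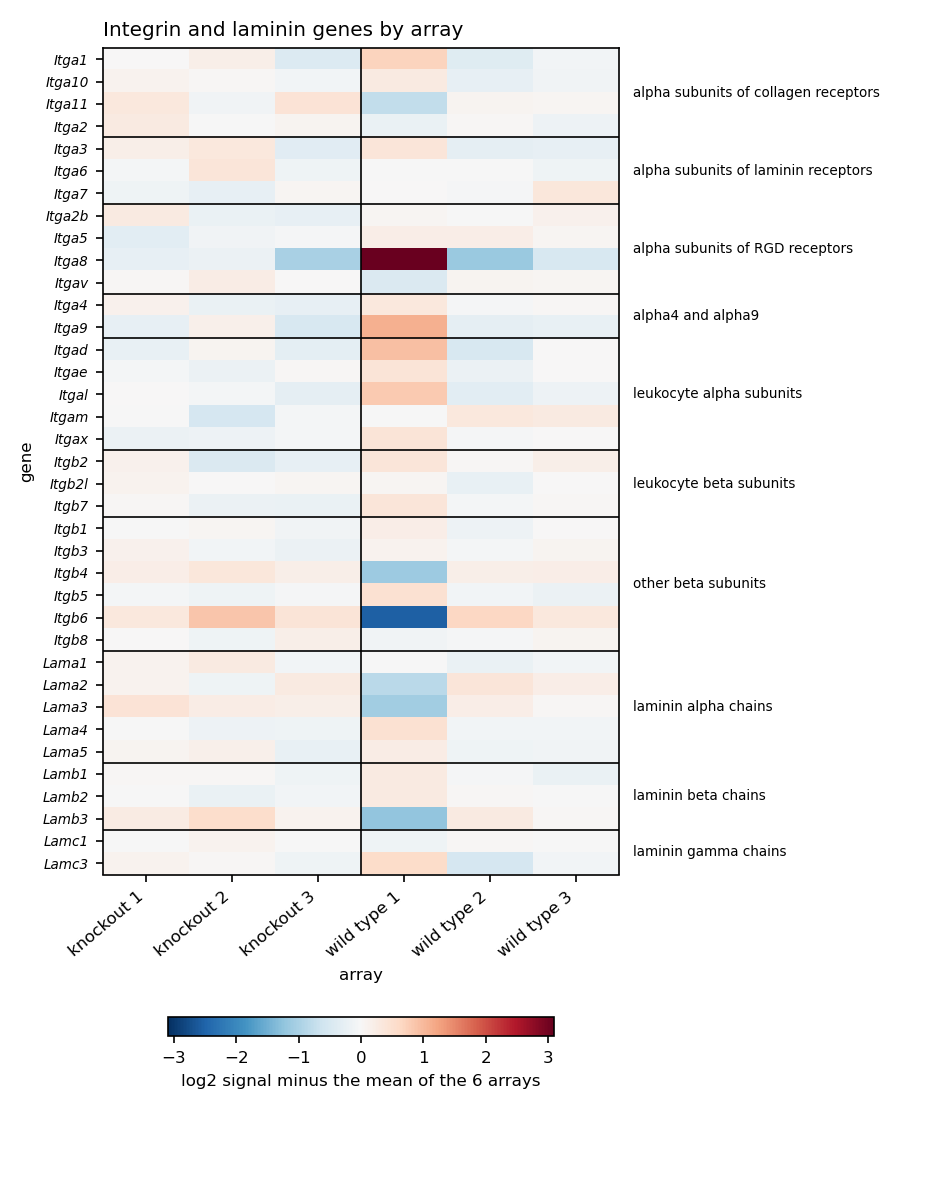
Each row is 1 of the 37 genes, grouped by role, each column an array, and the colour gives the log2 signal minus the gene's mean over the 6 arrays. The column labelled wild type 1 holds the strongest colours, red for Itga8 (11.14 there) and blue for Itgb6 (4.93 there), while the other 5 columns are paler.

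On the array labelled wild type 1, Itgb6, Itgb4, Lama3 and Lamb3 lay over 2-fold under each of the other 5, 4 of 37 members (10.8%), against 4.74% of all 19938 genes. Itgb4 pairs with Itga6 in hemidesmosomes, the plaques that fix basal epithelial cells to their basement membrane, and Lama3 and Lamb3 are chains of the laminin to which that pair binds. Itgb6 joins Itgav in an epithelial receptor that activates latent TGF-beta. These counts rest on 1 array and have no replicate check.

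Itgb6 had log2 signals of 7.79, 8.31 and 7.85 on the arrays labelled knockout 1, 2 and 3, and of 4.93, 8.10 and 7.78 on those labelled wild type 1, 2 and 3. The array labelled wild type 1 lay 8.2-fold below the mean of the other 5, and the arrays labelled wild type 2 and 3 lay at or beside the knockout values. Lamb3 gave 7.52, 7.79 and 7.36 in the knockout group and 6.03, 7.54 and 7.30 in the wild-type group. Lama3 gave 7.20, 7.02 and 6.98 in the knockout group and 5.70, 7.00 and 6.82 in the wild-type group. For Itgb4 the knockout arrays gave 8.36, 8.50 and 8.32, and the wild-type arrays 7.01, 8.33 and 8.34. In all 3 genes the array labelled wild type 1 was the low one, 2.78-fold, 2.48-fold and 2.57-fold below the mean of the other 5.

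Integrin alpha subunits that work with these genes differed in how they stood there. Itga6, the alpha partner of Itgb4, gave 8.74, 9.18 and 8.66 on the arrays labelled knockout and 8.79, 8.79 and 8.67 on those labelled wild type, so the array labelled wild type 1 lay inside the range of the others. Itga3, another alpha subunit of laminin receptors, was highest on that array, at 7.87 against 7.14 to 7.82. Itgav, which pairs with Itgb6 but also with Itgb3, Itgb5 and Itgb8, was lowest there at 8.71, against 9.16 to 9.38. The hemidesmosome list, written with earlier results of these data known, showed the same split. Its collagen Col17a1 gave 8.07 to 8.36 on the other arrays and 6.28 on that labelled wild type 1, and the linker Plec 8.22 on the latter and 9.47 to 9.67 elsewhere, while Dst gave 9.47 there and 9.51 to 9.72 elsewhere and the tetraspanin Cd151 was highest there at 9.68. The stratified squamous epithelium markers moved with these genes. Their summed linear signal was 46593 to 54113 on the knockout arrays and 1069, 55422 and 49789 on the arrays labelled wild type 1, 2 and 3, with Krt5 at 4.85 and Krt14 at 5.34 on the first and no marker at 0 on this scale. Their part in the result was not tested.

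**Figure D2:**
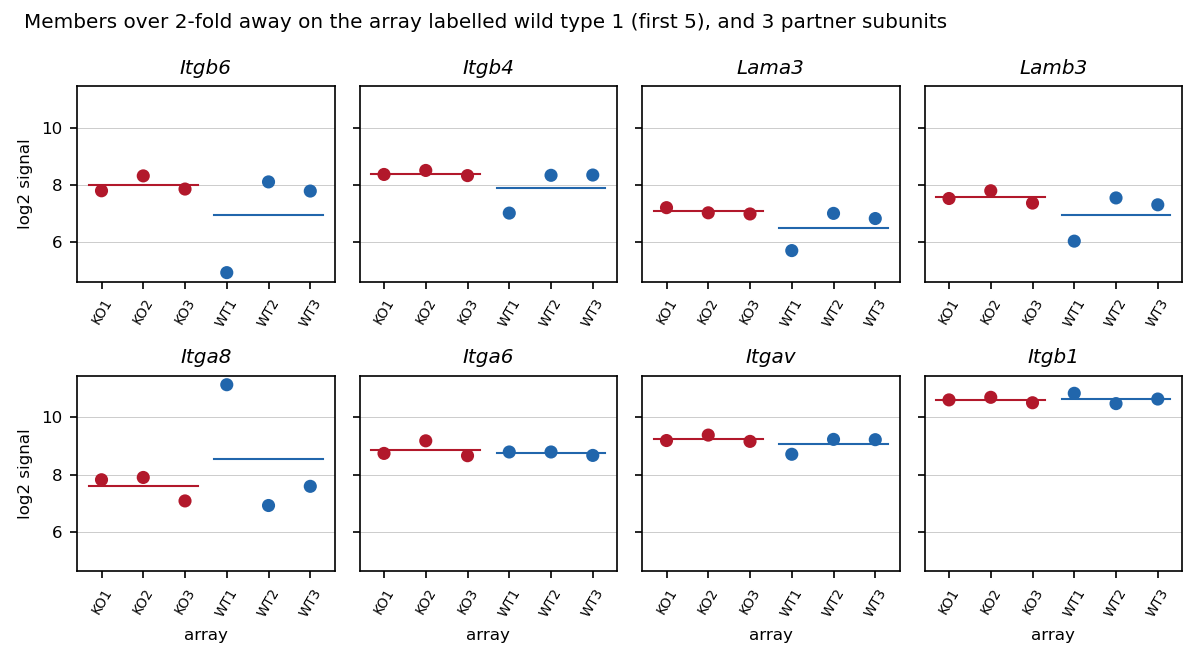
Points are log2 signals of 8 genes on the 6 arrays (KO, knockout, red; WT, wild type, blue) and lines are group means. The wild-type means of Itgb6, Itgb4, Lama3, Lamb3 and Itga8 are set apart by the single point labelled WT1, while Itga6, Itgav and Itgb1 each span less than 1 over the 6 arrays.

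On the array labelled wild type 1, Itga8 was the member over 2-fold above all others, 1 of 37 (2.7%) against 4.73% of all genes. Its product pairs with Itgb1 in a receptor of mesenchymal and smooth muscle cells that binds nephronectin and fibronectin. Signals were 7.82, 7.90 and 7.08 in the knockout group and 11.14, 6.92 and 7.59 in the wild-type group. The array labelled wild type 1 lay 3.68 above the mean of the other 5, a 12.8-fold difference, and the other arrays overlapped between groups. Npnt, which encodes nephronectin and was picked out after its values were seen, was also highest there, at 9.27 against 7.80 to 8.52. Vascular smooth muscle markers were not higher as a list on that array, where 0 of 16 were over 2-fold above all others. There 4 (Des, Casq2, Tpm2 and Actg2) were over 2-fold below all others. Des is also on the skeletal muscle list, all 20 markers of which were low there, so this count does not read smooth muscle alone. Summed linear signals of the smooth muscle list were 23850 to 32246 on the knockout arrays and 19008 to 30405 on the wild-type arrays, with no marker at 0. Endothelial markers were higher there, with 7 of 18 over 2-fold above all others. Their summed signals were 3006 to 4241 on the knockout arrays and 8110 on the array labelled wild type 1. On the other 2 wild-type arrays they were 2902 and 3003. At most 1 of the 18 lay below the low-signal cutoff on any array. What these cells contribute to the Itga8 signal was not tested.

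The starts of Itgb6 and Lamb3, which were low together on that array, and of Itga8, which was high, are shown for reference. The sequences are the 250 bases before the annotated start farthest upstream, from RefSeq on GRCm38.p6, at chr2:60722604-60722853 (minus strand) for Itgb6, chr1:193301744-193301993 (plus strand) for Lamb3 and chr2:12301945-12302194 (minus strand) for Itga8, and they are written 5′ to 3′ with E-boxes (CANNTG) in capitals.
Itgb6: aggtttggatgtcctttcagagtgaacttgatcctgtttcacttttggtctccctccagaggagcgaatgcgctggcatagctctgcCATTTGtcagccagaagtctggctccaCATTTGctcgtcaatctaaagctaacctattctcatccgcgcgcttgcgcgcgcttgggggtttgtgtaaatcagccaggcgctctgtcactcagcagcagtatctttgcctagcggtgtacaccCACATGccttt
Lamb3: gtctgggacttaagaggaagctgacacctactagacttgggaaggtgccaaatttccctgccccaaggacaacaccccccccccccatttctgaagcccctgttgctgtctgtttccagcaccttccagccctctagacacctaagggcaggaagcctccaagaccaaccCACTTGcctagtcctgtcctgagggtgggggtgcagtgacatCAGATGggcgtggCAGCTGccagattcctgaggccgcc
Itga8: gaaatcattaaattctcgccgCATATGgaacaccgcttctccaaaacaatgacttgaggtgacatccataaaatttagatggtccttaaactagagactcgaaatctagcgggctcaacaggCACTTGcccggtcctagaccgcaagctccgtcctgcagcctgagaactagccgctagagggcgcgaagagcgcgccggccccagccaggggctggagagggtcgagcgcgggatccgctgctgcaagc
An E-box, the core site of basic helix-loop-helix factors, is common in such windows: 66.2% of all 32851 windows of this length hold 1 or more, as do 22 of the 27 windows of the 24 members found in the table. Both strands were searched, each motif was counted by itself, and motifs may overlap. The AP-1 site TGANTCA occurred in 1 of the 27 windows (3.7%, against 6.75% of all), the GC box GGGCGG in 9 (33.3%, against 32.7%), the TEAD site GGAATG in 3 (11.1%, against 12.6%) and the CArG box in 2 (7.41%, against 1.47%). A match is a description of the letters and not a shown site.

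None of the tested integrin and laminin genes differed between knockout and wild type at the threshold used. Among the 13073 probe sets tested in limma, 0 had an adjusted p below 0.05 (0%) and 83 an unadjusted p below 0.05 (0.635%), and of the 30 tested members 0 and 1 did. An unmoderated test of the same values also gave 0, and 179 unadjusted. Of the 30, 14 had a higher mean in the knockout (46.7%, against 41.7% of the 11881 genes tested) and 16 a lower one, and the median difference was -0.0377 against -0.0412 over those genes. When the array labelled wild type 1 was left out, 18 were higher (60%, against 42.9%) and 12 lower, with a median of 0.0467 against -0.0244. The median size of the difference, whatever its sign, was 0.199 for the members against 0.146 for all tested genes on 6 arrays, and 0.123 against 0.0965 on 5. There 0 probe sets had an adjusted p below 0.05 and 186 an unadjusted one (1.42%), 1 of them a member. The median 95% interval of a member reached 0.46 to either side of its difference on 6 arrays and 0.35 on 5. It was narrower on 5 for 24 of the 30 members, so the width did not follow from the number of arrays alone.

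**Figure D3:**
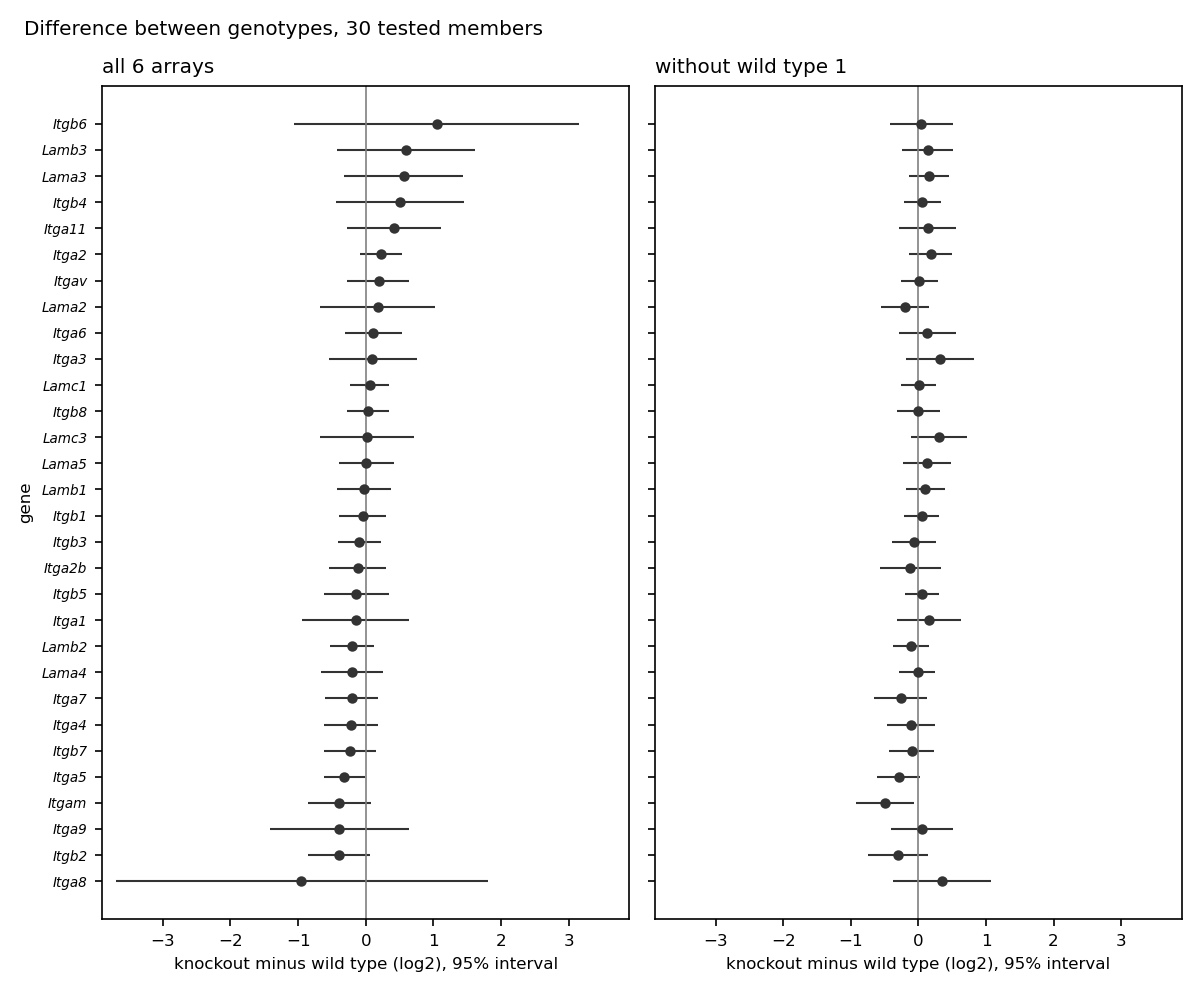
Points are knockout minus wild type differences in log2 signal of the 30 tested genes, with 95% intervals from limma, on all 6 arrays (left) and without the array labelled wild type 1 (right). The differences of Itgb6 (1.05) and Itga8 (-0.95) shrink to 0.04 and 0.35 on the right, and the interval is narrower there for 24 of the 30 genes.

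The differences of Itgb6, Lamb3, Lama3, Itgb4 and Itga8 rested on the array labelled wild type 1. The Itgb6 difference was 1.05 (SE 0.85, limma adjusted p = 0.911), and 0.04 (SE 0.19) without that array. That of Itga8 was -0.95 (SE 1.12, adjusted p = 0.911), and it turned to 0.35 (SE 0.30) without it. Those of Lamb3, Lama3 and Itgb4 were 0.60, 0.56 and 0.50, and 0.14, 0.16 and 0.06 without it.

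Itga5 was the tested member with the lowest p. It encodes the alpha subunit of the main fibronectin receptor, which is paired with Itgb1. Its signals were 7.24, 7.45 and 7.54 on the arrays labelled knockout 1, 2 and 3 and 7.78, 7.77 and 7.63 on those labelled wild type 1, 2 and 3. The knockout arrays were all below the wild-type arrays, by a margin of 0.086. The means were 7.41 ± 0.16 (SD, n = 3) and 7.73 ± 0.09 (SD, n = 3). The difference was -0.32 (SE 0.12, 95% interval -0.62 to -0.01, limma unadjusted p = 0.0449, adjusted p = 0.911). Without the array labelled wild type 1 it was -0.29 (SE 0.13, adjusted p = 0.997). Fn1, which encodes fibronectin, gave 10.83, 10.87 and 10.95 in the knockout group and 11.20, 11.02 and 10.92 in the wild-type group, which overlap. Groups that did not overlap, with the knockout lower, were found for 2 of 30 tested members (6.67%), Itga5 and Lamb2, against 4.5% of all tested genes, and with the knockout higher for 0 of 30 against 1.32%. Lamb2, a beta chain of smooth muscle and nerve basement membranes, gave 9.28, 9.08 and 9.19 against 9.56, 9.31 and 9.28, a margin of 0.001 between the nearest arrays.

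Itgb2 and Itgam, which are integrin subunits of leukocytes, had lower means in the knockout without passing the test. Itgb2 is the beta subunit that Itgal, Itgam, Itgax and Itgad share, and Itgam with Itgb2 forms the complement receptor of macrophages and neutrophils. Itgb2 gave 7.57, 6.99 and 7.20 in the knockout group and 7.82, 7.48 and 7.62 in the wild-type group, a difference of -0.39 (SE 0.19, adjusted p = 0.911). The array labelled knockout 1 overlaps the wild-type arrays, and that labelled knockout 2 is the lowest. Itgam gave 7.09, 6.57 and 7.04 in the knockout group and 7.07, 7.43 and 7.36 in the wild-type group, also a difference of -0.39 (SE 0.19, adjusted p = 0.911). Here the array labelled wild type 1 was the low one of its group, and without it the groups did not overlap and the difference was -0.49 (SE 0.18, unadjusted p = 0.0291, adjusted p = 0.997). On those 5 arrays, 3 of 30 tested members did not overlap with the knockout lower (10%, Itga5, Itgam and Lamb2), against 8.51% of all tested genes, and 0 of 30 with the knockout higher, against 4.28%.

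Markers of monocytes and macrophages were read beside both genes, and 0 of 14 tested passed. Of the 14, 12 had a lower mean in the knockout on 6 arrays, where 58.3% of all tested genes did, and 12 without the array labelled wild type 1, where 57.1% did. The summed linear signal of the 17 markers found was 5115, 2856 and 4261 on the arrays labelled knockout 1, 2 and 3 and 5414, 4553 and 4481 on those labelled wild type 1, 2 and 3, with no marker at 0. The array labelled knockout 2 was lowest, as it was for Itgam and Itgb2, and that labelled wild type 1 was highest, as it was for Itgb2 but not for Itgam. Lyz2, the brightest of these markers, weighs most in the sum, with 11.09, 9.52 and 10.47 in the knockout group and 10.45, 10.63 and 10.72 in the wild-type group. The list medians were 7.53, 7.01 and 7.56 in the knockout group and 7.90, 7.75 and 7.50 in the wild-type group. Leaving out the arrays labelled wild type 1 and knockout 2 gave -0.33 (SE 0.12) for Itgam and -0.17 (SE 0.15) for Itgb2. The part of macrophage content in these differences was not tested.

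**Figure D4:**
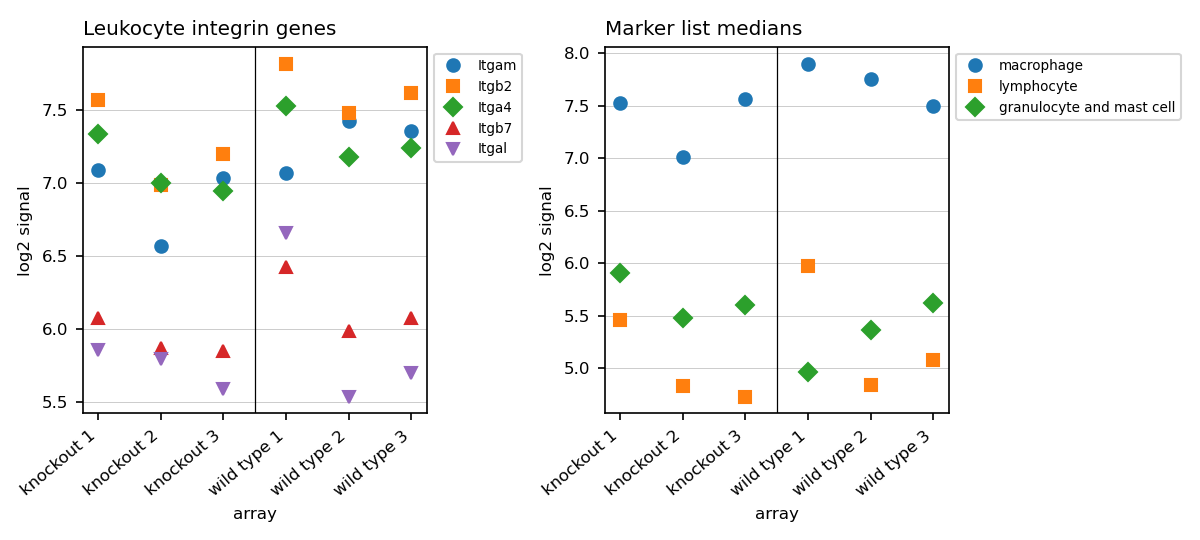
Left, log2 signals of 5 leukocyte integrin genes on the 6 arrays; right, medians of the macrophage, lymphocyte and granulocyte marker lists on the same arrays. The array labelled knockout 2 is lowest for Itgam (6.57), Itgb2 (6.99) and the macrophage median (7.01). Itgal, Itga4, Itgb7 and the lymphocyte median are highest on the array labelled wild type 1, where the granulocyte median is lowest (4.96).

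The other leukocyte members, except Itgb2l, were highest on the array labelled wild type 1. Itgb7, a beta subunit of gut-homing lymphocytes, gave 6.08, 5.87 and 5.85 in the knockout group and 6.43, 5.99 and 6.08 in the wild-type group, a difference of -0.23 (SE 0.15) that was -0.10 (SE 0.14) without that array. Itga4, its alpha partner and the receptor subunit for Vcam1, gave 7.53 there and 6.95 to 7.34 elsewhere. Itgal, the alpha subunit of the lymphocyte receptor for Icam1, gave 6.66 there and 5.54 to 5.86 elsewhere. Itgad gave 6.68 there and 5.24 to 5.83 elsewhere on 1 probe set, and on its second probe set 5.39 there and 5.05 to 5.48 elsewhere, so its 2 probe sets disagree. Itgax, a dendritic cell marker, gave 5.99 there and 5.40 to 5.59 elsewhere, and Itgae, the receptor subunit for E-cadherin, 5.17 and 4.59 to 4.81. Itgb2l, a relative of Itgb2, lay between 5.37 and 5.71 on all arrays. Without the array labelled wild type 1, Itgal, Itgad and Itgb2l had higher means in the knockout, by 0.13, 0.09 and 0.17, and Itgax a lower one, by -0.11. Itgam, Itgax and Itgad follow each other on the chromosome with no other protein-coding gene between them in RefSeq, and of the 3 Itgam alone was not highest on that array. Lymphocyte markers had medians of 4.73 to 5.46 on the other arrays and of 5.97 on that labelled wild type 1, with 3 of 13 over 2-fold above all others (summed linear signal 509 to 699 on the knockout arrays and 555 to 883 on the wild-type arrays, none at 0). Their part in these values was not tested.

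Collagen receptors showed a split among the alpha subunits on the array labelled wild type 1. Itga1, found on smooth muscle and capillary cells, was highest there, at 10.01 against 8.95 and 9.24 on the other wild-type arrays and 9.34, 9.50 and 8.90 on the knockout arrays. Itga11, a fibroblast receptor subunit, was lowest there, at 5.91 against 6.57 to 7.10. Fibroblast markers were lowest there for 8 of 12 genes, against 29.8% of the genes that passed the filter. Their summed linear signals were 17380 to 18546 on the knockout arrays. On the arrays labelled wild type 1, 2 and 3 they were 13823, 19792 and 18534, with none below the low-signal cutoff. The part of fibroblasts was not tested. Itga2, the subunit of the platelet and epithelial collagen receptor, gave 7.15, 6.87 and 6.97 in the knockout group and 6.67, 6.91 and 6.72 in the wild-type group. The groups overlap by the array labelled wild type 2, and the difference was 0.23 (SE 0.12, adjusted p = 0.911), or 0.18 (SE 0.13) without the array labelled wild type 1. Itga10, a cartilage subunit, lay between 5.55 and 6.08.

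Other alpha and beta subunits varied within 2-fold on the arrays other than that labelled wild type 1. Itga9, a receptor subunit for tenascin C and Vcam1, gave 9.15 there and 7.57 to 8.22 elsewhere, and Itgb5, a vitronectin receptor subunit, 9.82 there and 9.17 to 9.32 elsewhere. The differences of these 2 genes were -0.39 (SE 0.42) and -0.14 (SE 0.20), and without that array both were 0.06. Itga7, the laminin receptor subunit of muscle, gave 7.97, 7.84 and 8.15 in the knockout group and 8.11, 8.05 and 8.45 in the wild-type group, so that it was not low on the array on which all 20 skeletal muscle markers were. The platelet subunits Itga2b and Itgb3 lay between 6.13 and 6.66 and between 7.33 and 7.65, and Itgb8, which with Itgav activates latent TGF-beta, between 6.86 and 7.19.

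Laminin chains of muscle and vessel differed in how they stood on the array labelled wild type 1. Lama2, the alpha chain of muscle basement membranes, gave 8.88, 8.64 and 9.04 in the knockout group and 7.92, 9.13 and 8.96 in the wild-type group, 2.02-fold below the mean of the other 5 on the array labelled wild type 1. Skeletal muscle markers had summed linear signals of 50022 to 65819 on the knockout arrays, and of 2441, 58905 and 68982 on the arrays labelled wild type 1, 2 and 3, with Acta1 at 7.28 on the first and none at 0. Their part in the Lama2 value was not tested. Lama4, the alpha chain of endothelial and smooth muscle basement membranes, was highest on the array labelled wild type 1 at 9.56 and lay between 8.94 and 9.08 elsewhere, and its difference was -0.20 (SE 0.19), or -0.01 without that array. Lama5, a second vascular chain that is also broad in epithelia, gave 7.45, 7.51 and 7.12 in the knockout group and 7.59, 7.21 and 7.24 in the wild-type group. Lamb1, the beta chain most common outside muscle and nerve, lay between 8.64 and 9.13. Lamc3 gave 6.28, 6.20 and 6.04 in the knockout group and 6.73, 5.65 and 6.09 in the wild-type group, and Lama1, a chain of embryonic membranes, did not exceed 5.56. Lama1 and 6 integrin genes (Itga10, Itgad, Itgae, Itgal, Itgax and Itgb2l) fell below the filter on low signal and were given by values only.

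Genes that work with integrins and laminins were read from lists, and 0 of 71 tested genes in 5 lists passed the test. Among ligands, 15 of 17 found were tested, 4 with a higher and 11 with a lower mean in the knockout, and 6 and 9 without the array labelled wild type 1. Cdh1, E-cadherin, gave 5.18 on that array and 9.38 to 10.56 elsewhere, and Fbln5, an elastic fibre protein that binds integrins, 10.01 there and 7.72 to 8.64 elsewhere. Of 30 tested genes of integrin activation and focal adhesions, 15 were higher and 15 lower, with a median difference of -0.00325. Itgb1bp2, a striated muscle protein that binds the Itgb1 tail, gave 5.27 on that array and 8.26 to 9.34 elsewhere. Fermt1, the kindlin of epithelium, gave 5.17 there, 7.86 on the array labelled knockout 2 and 6.29 to 6.76 on the remaining 4. The talin gene Tln1, named after its values were seen, lay between 8.87 and 9.44 on all arrays.

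Among basement membrane partners of laminin, all 12 were tested, 3 with a higher and 9 with a lower mean in the knockout, and 9 and 3 without the array labelled wild type 1. Nid1, which links laminin to collagen IV, gave 8.86 on that array and 9.24 to 9.29 elsewhere, and the collagen XVIII gene Col18a1 8.33 there and 6.77 to 7.17 elsewhere. Smoc2, a calcium-binding matrix protein, had a difference of -0.24 and adjusted p = 0.911 in limma. Over the 5 lists, 3 of 71 tested genes (Smoc2, Sgce and Cd151) did not overlap between groups with the knockout lower. This was 4.23%, against the 4.5% of all tested genes. With the knockout higher it was 0 of 71, against 1.32%. Without the array labelled wild type 1, 8 of 71 did not overlap with the knockout lower (11.3%, against 8.51%). With the knockout higher, 2 of 71 did not (2.82%, against 4.28%). Among dystroglycan and other laminin receptors, 2 of 10 tested genes had a higher and 8 a lower mean in the knockout, and 1 and 9 without that array, with medians of -0.125 and -0.177. The sarcoglycan gene Sgca, of striated muscle, gave 7.45 to 8.69 on the other arrays and 6.45 on that labelled wild type 1. Dag1, dystroglycan itself, was highest on the latter at 9.81, against 8.94 to 9.18. In the hemidesmosome list 3 of 4 genes had a higher mean in the knockout, and 2 of 4 without that array.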

How the data were processed

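Total RNA of 6 samples labelled as mouse aorta, 3 Trail knockout and 3 wild type, was, per the labels' protocols, extracted with Trizol and labelled with biotin from 6 ug for Affymetrix arrays of 1 colour. The authors deposited 1 table of log2 values for 35399 probe sets. The log base is read from their range, 1.55 to 13.96. MAS5 is listed, without a role, in the submitters' processing notes. Background correction, scaling and genome build, which could change small differences of dim genes, are not given in the sources. No column was left without a sample, and array medians were 6.36 to 6.48 over named probe sets. The number of arrays limits the precision.

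Of 23410 probe sets in the platform annotation, 21789 have 1 symbol and 1621 several, and none was named from several. All 37 members matched RefSeq by Entrez ID. Members and lists were chosen with earlier results of these data known. Members were named by rule if 1 array lay over 2-fold from all others. Also named were the 6 with the lowest p, the 6 with the highest mean, and their partners. Some of these, such as Lamc1, Itgb5 and Itgav, were given by ranges, and some other members, such as Itga7 and Lama2, with all values. From the further lists, genes with the lowest p or with 1 array farthest from the others were named.

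Groups were compared in limma 3.58.1 (R 4.3.3) with an intensity trend, and p-values were adjusted by Benjamini-Hochberg (threshold 0.05) over all 13073 probe sets above the lowest 40% by mean signal (5.90). For members below it, differences came from a fit without filter. The code was tested on simulated data. The labels do not say that same-numbered arrays pair mice, so the replicate numbers were not taken as pairs. Deviations from the group mean correlated at r of 0.09, -0.24 and 0.21 for same-numbered arrays and -0.34 to 0.42 for the others. The array labelled wild type 1 pulls the mean of its group, so these values cannot decide whether arrays are paired. Alternatives were the filter, quantile normalization, median centring, a pseudocount of 16, other forms of the test, array weights, a replicate block, probe set averaging and leaving out arrays.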

Additional observations from a re-analysis of the deposited data

How the results depend on the processing

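The count of 0 passing members held in all 20 alternative runs, and the lowest adjusted p of a named member in any run was 0.749. Over all tested probe sets, the count of 0 became 1 for the array labelled knockout 3 against those labelled wild type 2 and 3, a run in which the single knockout array takes its spread from the wild-type pair. That run, the one without the arrays labelled wild type 1 and knockout 2, and the one on all annotated probe sets were chosen after seeing the data. With the replicate block, 0 members and 0 probe sets passed, and 68 had an unadjusted p under 0.05. With array weights in limma, 640 of the 13073 probe sets had one, and 4 of the 30 tested members. The lowest adjusted p in that limma run was 0.839.

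None of the 16 named members was called, so a change of sign marks a value near 0 or one that rests on 1 array. Their sign held in 294 of 317 runs, and the cause of the other 23 was not tested beyond the arrays left out. Many of the 317 runs altered only the filter, the form of the test, the replicate block or the choice of probe sets. The difference of a named member could not change in these, so the agreement there was fixed in advance and is no support for a sign. Itgb1 was 0.02 with quantile normalization. With array weights Itga1, Itga8 and Itgb5 were 0.06, 0.12 and 0.09. On leaving out 1 array, Itga1 ranged from -0.37 to 0.16, Itga8 from -1.76 to 0.35, Itgb1 from -0.13 to 0.05 and Itgb5 from -0.27 to 0.06. Without the arrays labelled wild type 1 and knockout 2, Itga1, Itga8, Itgb1 and Itgb5 were 0.03, 0.20, 0.01 and 0.08, and Itgav, Itgb6 and Lamc1 were -0.05, -0.12 and -0.04. For knockout 3 against wild type 2 and 3, Itgav, Itgb4, Itgb6, Lamb3 and Lamc1 were -0.07, -0.01, -0.09, -0.06 and -0.04, and Itgb5 was 0.09. No detection calls were used, so how far dim probe sets such as those of Itgae and Lama1 rise above background is not known.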
